A study of Mus musculus with 4 samples.

Results

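The S100 calcium-binding proteins were examined in Ly6G+ bone marrow cells, called myeloid-derived suppressive cells (MDSCs), of *lal+/+* and *lal-/-* mice. The genes were *S100a1*, *S100a4*, *S100a6*, *S100a8*, *S100a9*, *S100a10*, *S100a11* and *S100a13*. They were taken from a list of names, which was chosen with earlier results of these data known. All 8 were measured, by 9 of the 21789 probe sets that name a single gene, since *S100a11* has 2 of them. They are 8 of 19938 genes measured in all. 9 further S100 genes on the array were examined beside them.

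The *lal-/-* mice lack lysosomal acid lipase (LAL), the enzyme that breaks down cholesteryl esters and triglycerides in the lysosome, in every tissue, so that the deletion is not limited to myeloid cells. 2 arrays were made from *lal+/+* and 2 from *lal-/-* cells. The mice of both genotypes were 5 months old, and the labels give 10 generations of backcrossing to FVB/N. The labels call the cells CD11b and Gr-1 positive, whereas the methods describe magnetic selection with an antibody to Ly6G. The methods give 5 mice for the cell isolation, but how these animals were divided over the arrays is not stated there. The p-values therefore rest on the spread among 4 arrays and not among known animals, and that spread may be technical. The test also drew each gene's variance toward that of all genes, so a p-value does not measure that gene's spread alone.

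S100 proteins are small proteins that bind calcium through a pair of EF hands, most often act as dimers, and expose a binding surface for partner proteins once calcium is bound. S100A8 and S100A9 form calprotectin, which fills the cytosol of neutrophils and monocytes, sequesters zinc and manganese, and acts after release as a danger signal through TLR4 and the receptor RAGE. S100A4, S100A6, S100A10 and S100A11 are found in many cell types, where they work with myosin and with annexins at the membrane and the cytoskeleton. S100A1 is best known from heart muscle, and S100A13 from the release of proteins that lack a signal peptide.

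Most S100 genes of the mouse lie together on chromosome 3. All 8 genes lie there, as do 14 of the 17 S100 genes measured, in 2 groups. The first runs in the order *S100a1*, *S100a13*, *S100a14*, *S100a16*, *S100a3*, *S100a2*, *S100a4*, *S100a5*, *S100a6*, *S100a7a*, *S100a8* and *S100a9*, and the second holds *S100a11* and *S100a10*. The starts of *S100a8* and *S100a9*, the brightest genes, of *S100a4*, and of *S100a1* and *S100a13*, which were both higher in *lal-/-* cells, are printed here. The sequences are those of RefSeq on the build GRCm38.p6, which held promoters of 7 of the 8 genes and none of *S100a10*. For *S100a8*, *S100a9* and *S100a4*, the 100 bases before and the first 25 bases of the transcript are given 5′ to 3′, with TATAAA, the core letters of a TATA box, in capitals.
S100a8, chr3:90668971-90669095, plus strand: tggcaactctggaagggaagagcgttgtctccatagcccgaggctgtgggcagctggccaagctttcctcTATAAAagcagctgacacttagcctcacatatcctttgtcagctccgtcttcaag
S100a9, chr3:90695697-90695821, minus strand: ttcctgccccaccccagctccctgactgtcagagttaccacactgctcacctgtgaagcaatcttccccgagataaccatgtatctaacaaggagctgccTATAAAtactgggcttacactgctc
S100a4, chr3:90603670-90603794, plus strand: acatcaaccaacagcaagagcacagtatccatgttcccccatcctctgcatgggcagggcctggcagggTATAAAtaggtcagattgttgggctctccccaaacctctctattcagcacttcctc

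In *S100a8* these letters lay from -30 to -25 relative to the annotated start, and in *S100a4* from -31 to -26. In *S100a9* they lay from 1 to 6, at the annotated start itself. TATAAA was found on either strand in 3 of the 7 promoters (300 bases each), and in 13.6% of all 32851 promoters of the table. Of the other letters searched on both strands, TTGCNNAA, a core of C/EBP sites, was found in *S100a9* only (10.8% of all promoters). TGANTCA, the core of AP-1 sites, was found in *S100a11* only, at 2 places (7.81% of all promoters). TGANTCA reads the same on both strands, and no 2 of the motifs overlapped in these promoters. A match describes the sequence and is not a measured binding site.

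*S100a1* and *S100a13* start back to back. The start of *S100a1*, read from the minus strand, and the start of *S100a13*, read from the plus strand, are 104 bases apart, and 204 of the 300 bases in their promoter windows are the same DNA. In the stretch below, given on the plus strand, capitals mark the bases between both starts.
S100a1 and S100a13, chr3:90514305-90514460, plus strand: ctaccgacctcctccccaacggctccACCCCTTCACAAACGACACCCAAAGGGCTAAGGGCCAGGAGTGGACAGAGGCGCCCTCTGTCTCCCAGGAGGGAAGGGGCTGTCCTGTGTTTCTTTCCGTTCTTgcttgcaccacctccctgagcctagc
None of the 3 motifs was found in either window.

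In *lal-/-* bone marrow MDSCs, *S100a13* (4.22-fold) and *S100a1* (2.80-fold) were higher and *S100a10* was lower (3.52-fold) than in *lal+/+* cells. *S100a6* rose by a little less than the fold threshold, and *S100a4* less still. *S100a8*, *S100a9* and *S100a11* differed by at most 1.15-fold and did not pass the test. Genotypes were compared with limma on log2 signals, and calls required at least a 2-fold difference with an adjusted p below 0.05. Of the 8 genes, 2 were called higher and 1 lower. Among all 19938 genes, 7.56% were called higher and 3.24% lower, and each of the 2154 genes with a fold of at least 2 also passed the adjusted p. At an adjusted p under 0.05 and any fold, 5 of the 8 genes passed, against 29.6% of all genes. 4 of these 5 were higher, against 19.8% of all genes. The median log2 fold change was 0.36 over the 8 genes and 0.085 over all genes.

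**Figure D1:**
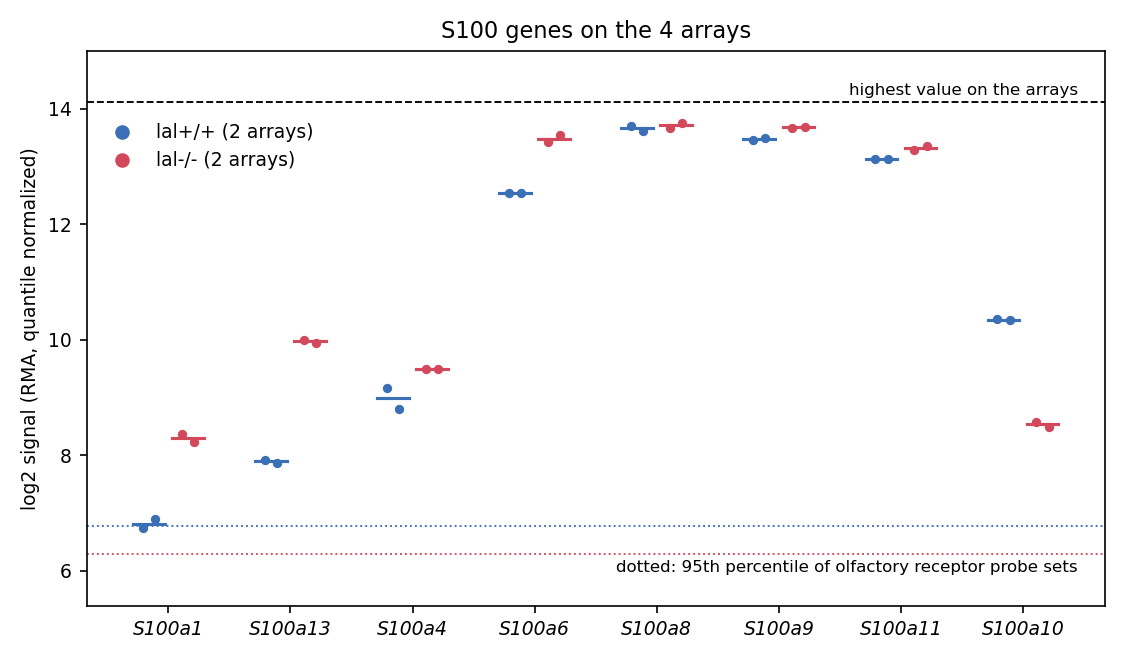
Log2 signal of the 8 S100 genes (vertical axis) on each array, 1 point for each of the 2 *lal+/+* (blue) and 2 *lal-/-* (red) arrays, and horizontal bars at the genotype means. *S100a1* and *S100a13* lie higher and *S100a10* lies lower in *lal-/-* cells, while *S100a8*, *S100a9* and *S100a11* lie in both genotypes just under the highest value on the arrays (14.1, dashed).

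*S100a13*, which takes part in the release of FGF1 and interleukin-1α, read 7.93 and 7.86 in *lal+/+* cells and 9.99 and 9.95 in *lal-/-* cells. The genotypes did not overlap, and arrays of a genotype lay within 0.1 of each other. The log2 fold change was 2.08 (standard error 0.12, 95% interval 1.79 to 2.36, limma adjusted p = 9.11e-05). It was 2.61 once the arrays were shifted to equal medians (a common median) and 2.43 with the values as deposited. *Fgf1* (log2 fold change -0.023) and *Il1a* (-0.84, adjusted p = 0.0757) did not pass the test, and both lay below the level of silent genes in both genotypes. For *Il1a* this rested on the scaling, since it was called lower with the values as deposited (-1.09, adjusted p = 0.0129) and was -0.91 with a common median (adjusted p = 0.0242).

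*S100a1*, whose neighboring start is shown above, read 6.74 and 6.90 in *lal+/+* cells and 8.37 and 8.23 in *lal-/-* cells. The *lal+/+* arrays lay close to the level of silent genes, set at 6.79 in *lal+/+* and 6.29 in *lal-/-* cells, the 95th percentile of 1035 probe sets of olfactory receptor genes. The log2 fold change was 1.48 (standard error 0.13, 95% interval 1.17 to 1.80, limma adjusted p = 3.37e-04). Since the *lal+/+* signal was this near to the background, the fold change may understate the change. *S100a1* and *S100a13*, whose starts are adjacent, were both higher. Whether the stretch between the starts has a part in this was not tested.

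*S100a10* was the only one of the 8 genes to fall. Its product, also called p11, is a light chain of annexin A2 that binds its partner without calcium and that draws plasminogen to the cell surface. It read 10.36 and 10.34 in *lal+/+* cells and 8.57 and 8.50 in *lal-/-* cells, with no overlap. The log2 fold change was -1.82 (standard error 0.12, 95% interval -2.10 to -1.53, limma adjusted p = 1.29e-04). It was -1.22 with a common median and -1.40 with the values as deposited, so that its size but not its call rested on the scaling.

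Other genes that fell on these arrays are known from other cells. Of 7 B cell markers 7 were lower, and their mean log2 level over the list was 9.84 to 10.04 in *lal+/+* and 5.94 to 6.04 in *lal-/-* cells. Of 10 markers of monocytes and macrophages 6 were lower and 1, *F13a1* (1.98), was higher (mean level 8.48 to 8.58 against 7.14 to 7.21). Of 4 T cell markers 3 were lower and 1, *Cd3d* (2.42), was higher (9.71 to 9.79 against 8.43 to 8.44). Of 3 genes of MHC class II presentation 3 were lower (10.47 to 10.67 against 6.47 to 6.78). In *lal-/-* cells *Ms4a1*, *Ebf1* and *Cr2* of the B cell list and *Mrc1* and *C1qb* of the monocyte and macrophage list lay below the level of silent genes. So did *Cd74* of MHC class II presentation. The other measured genes of these lists, among them *Cd79a*, *Cd79b*, *Cd22*, *Pax5*, *H2-Aa* and *H2-Ab1*, stayed above that level. The part of these cells in the fall of *S100a10* was not tested. In bulk RNA, fewer cells that express a gene cannot be told apart from less of its RNA in each cell.

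The genes whose profile over the 4 arrays was most like that of *S100a10*, of 7058 compared, were *Itga4*, *Mllt3* and *St3gal6*. Their root mean square differences from *S100a10*, each profile centered on its mean, were 0.011, 0.026 and 0.030. For *S100a13* they were *Otub1*, *Rflnb* and *Chil1*, at 0.026, 0.027 and 0.036. The likeness was computed over 4 arrays in 2 genotypes, so it mostly picks genes of like fold change. For *Itga4*, *Mllt3* and *St3gal6* the log2 fold changes were -1.84, -1.82 and -1.81.

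*S100a6*, or calcyclin, binds annexin A11 and the ubiquitin ligase adaptor CACYBP. It read 12.55 and 12.53 in *lal+/+* cells and 13.42 and 13.54 in *lal-/-* cells, without overlap. The log2 fold change was 0.94 (standard error 0.12, 95% interval 0.65 to 1.23, limma adjusted p = 0.00160), a 1.91-fold change that missed the fold threshold. It passed with a common median (1.07) and missed with the values as deposited (0.89). By rank, 338 and 345 probe sets were brighter in *lal+/+* cells, and only 32 and 23 in *lal-/-* cells.

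*S100a4*, which binds nonmuscle myosin and is known from cell motility, read 9.17 and 8.80 in *lal+/+* cells and 9.50 on both *lal-/-* arrays. The *lal-/-* values lay above both *lal+/+* values, but the *lal+/+* arrays were further apart than for any other of the 8 genes. The log2 fold change was 0.51 (standard error 0.16, 95% interval 0.14 to 0.88, limma adjusted p = 0.0463). With a common median it was 1.12, which was called, and with the values as deposited 0.94. It was 0.33 (adjusted p = 0.114) without *lal+/+* replicate 2 and 0.70, still at an adjusted p under 0.05, without *lal+/+* replicate 1. Without *lal-/-* replicate 1 or 2 the adjusted p was 0.158 and 0.161.

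*S100a8* read 13.70 and 13.62 in *lal+/+* cells and 13.67 and 13.76 in *lal-/-* cells. These values overlapped, with a log2 fold change of 0.053 (standard error 0.12, 95% interval -0.24 to 0.34, limma adjusted p = 0.786). *S100a9* read 13.46 and 13.48 against 13.66 and 13.68. Its arrays did not overlap, but the log2 fold change of 0.20 (standard error 0.12, 95% interval -0.082 to 0.48) did not pass the test (limma adjusted p = 0.257). The standard deviations of *S100a9* were only 0.013 in *lal+/+* and 0.017 in *lal-/-* cells. Its standard error thus came mostly from the variance shared over genes, and the missing call rests on this moderation. 7 of the 8 genes had no overlap between genotypes, and so had 65.7% of all genes, so that lack of overlap alone sets no gene apart here.

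*S100a11*, a partner of annexin A1, was read by 2 probe sets. The brighter read 13.13 and 13.12 against 13.28 and 13.36, a log2 fold change of 0.19 (standard error 0.12, 95% interval -0.095 to 0.48, limma adjusted p = 0.284). The other read 13.003 and 13.07 against 13.22 and 13.27, a log2 fold change of 0.21 (limma adjusted p = 0.245). The probe sets therefore gave like values. RefSeq also lists a pseudogene, *S100a11-ps*, and whether either probe set reads it was not tested.

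These 3 genes sat near the highest values on the arrays, where a rise may be hard to read. The highest value on any array was 14.1 after quantile normalization, and from 14.02 to 14.17 as deposited. *S100a8* lay 0.45 below this value in *lal+/+* cells, *S100a9* 0.63 and *S100a11* 0.98 (1.07 for its second probe set). It is the brightest signal seen, and where the scale itself ends is not known from these values. A 2-fold rise, 1 on the log2 scale, would have passed it for *S100a8*, for *S100a9* and narrowly for the brighter probe set of *S100a11*. Such a rise would have stayed below it for the second probe set of *S100a11* and for *S100a6*, which had 1.57 left in *lal+/+* cells. In *lal-/-* cells, however, *S100a6* lay 0.63 below the highest value, nearer than the brighter probe set of *S100a11* (0.79). The size of its rise may thus be hard to read too. Only 10 and 16 probe sets were brighter than *S100a8* in *lal+/+* cells, and 12 and 8 in *lal-/-* cells. For *S100a9* these numbers were 29 and 28 against 13 and 11. Such a rank also moves with the signals of other bright genes, and no rise of *S100a9* is read from it. A missing call does not show equal levels of these transcripts, and a fall could be hidden too if the probes are saturated, which the summarized values do not tell.

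The share of genes called was highest at middle signals and lower at both ends of the scale. Of 25 genes with a mean of at least 13, among them *S100a6*, *S100a8*, *S100a9* and *S100a11*, 1 was called (*Hmgn2*, 1.09), and their median absolute log2 fold change was 0.32. Of 972 genes between 9 and 10, 27.3% were called, with a median of 0.60. Of 131 genes between 12 and 13, 10.7% were called, with a median of 0.39. Of 4721 dim genes between 5 and 6, 1.86% were called, with a median of 0.19, which is below that of the brightest genes. Since the mean covers both genotypes, a gene that rose to a bright signal can fall in a lower range. *Camp* (12.33 to 13.59) and *Ltf* (11.76 to 13.43), both called higher, are examples. Whether bright signals hide a rise was therefore not tested by these shares.

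**Figure D2:**
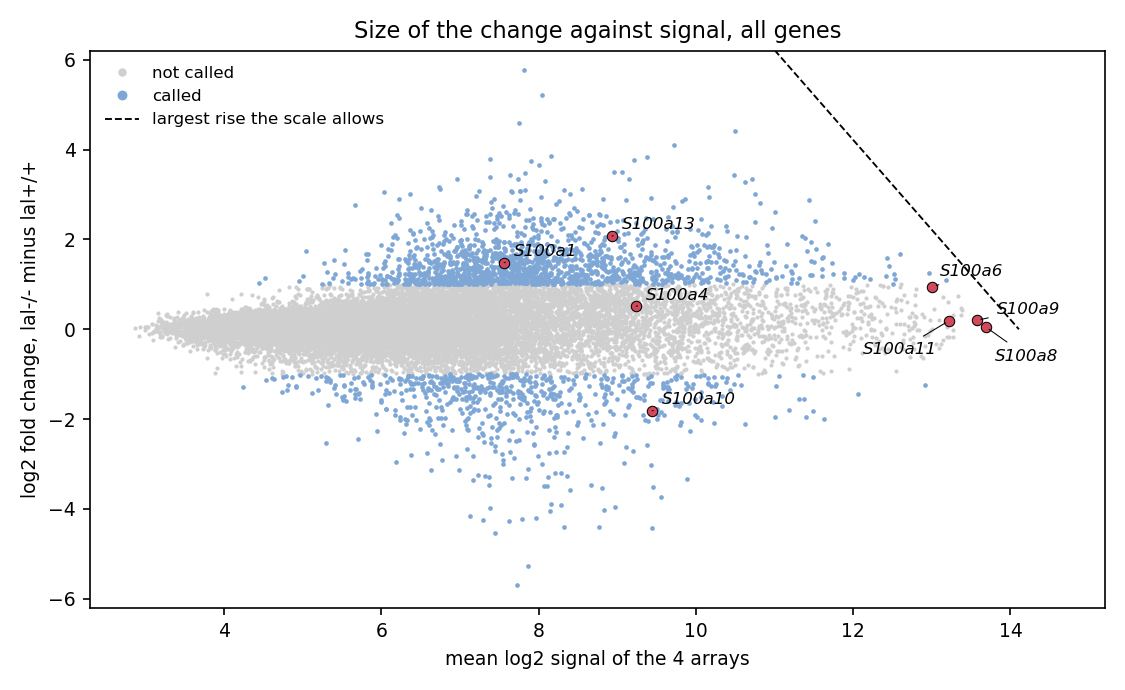
Log2 fold change of 19938 genes (vertical axis) against their mean log2 signal over the 4 arrays (horizontal axis), with called genes in blue and the 8 S100 genes in red. The dashed line marks the rise at which the *lal-/-* mean would equal the highest value on the arrays. *S100a8* and *S100a9* sit next to the line, and *S100a1*, *S100a13* and *S100a10* sit at lower signals, far from it.

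Of the 9 other S100 genes, 2 were higher and 0 lower in *lal-/-* MDSCs. *S100a2*, known from epithelia, read 6.84 and 6.52 in *lal+/+* cells and 8.79 and 9.14 in *lal-/-* cells. Its log2 fold change was 2.29 (standard error 0.17, limma adjusted p = 2.04e-04), and its *lal+/+* mean lay below the level of silent genes. *S100a3*, known from the hair cuticle, read 5.33 and 5.47 against 6.57 and 6.47. Its log2 fold change was 1.12 (standard error 0.13, limma adjusted p = 8.81e-04), again from below the level of silent genes in *lal+/+* cells and barely above it in *lal-/-* cells. It missed the fold threshold with the values as deposited (0.92). *S100a2* and *S100a3* are neighbors in the first group, and *S100a2* was not on the written list of S100 genes but was named by the rule for all S100 genes of the array.

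The remaining 7 genes did not pass the test, with log2 fold changes from -0.17 (*S100a16*) to 0.27 (*S100b*). *S100a5*, *S100a14*, *S100b* and *S100z* lay below the level of silent genes in both genotypes, so that their signal shows no level to compare. The genes next to the groups were not called either, though *Snapin*, *Tchhl1*, *Tdpoz2* and *Tdpoz1* had adjusted p values under 0.05 without reaching the fold threshold. Both *Tdpoz* genes lay below the level of silent genes in both genotypes. *Snapin* (0.71) and *Chtop* (0.43) precede *S100a1*, and *Pglyrp4* (-0.19) and *Pglyrp3* (-0.33) follow *S100a9*. *Tchhl1* (-0.90) and *Tchh* (0.23) precede *S100a11*, and *Tdpoz2* (-0.51) and *Tdpoz1* (-0.68) follow *S100a10*. *Snapin* passed the fold threshold with a common median and with the values as deposited. Within the first group, called genes stood beside genes that were not: *S100a14* (-0.15) and *S100a16* (-0.17) lie between *S100a13* and *S100a3*.

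**Figure D3:**
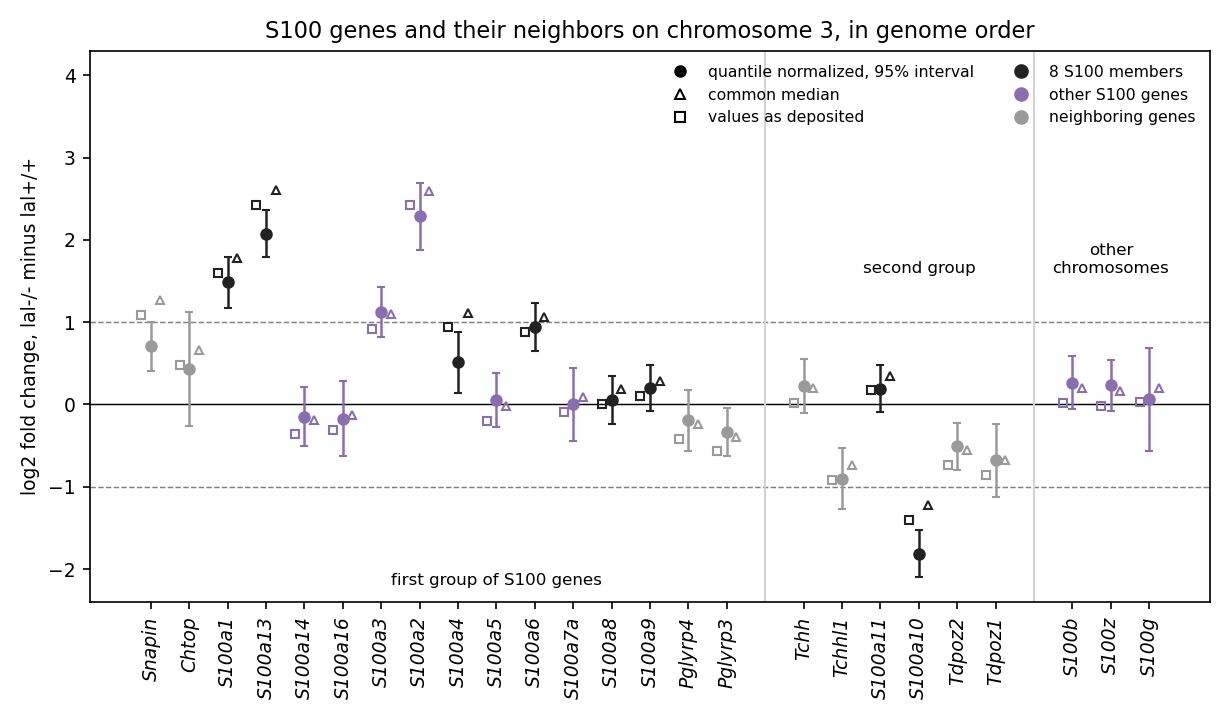
Log2 fold change (vertical axis) of 14 S100 genes and 8 neighboring genes in genome order along chromosome 3, with 3 S100 genes of other chromosomes at the right. Filled points are quantile-normalized values with their 95% interval, open triangles are values with a common median and open squares values as deposited. The called S100 genes of the first group lie in its first part, from *S100a1* to *S100a2*, and *S100a10* falls beside *S100a11*, which stays near 0.

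The partners of these proteins moved in both directions. Of 13 genes of intracellular partners, 2 were higher and 2 lower. The higher genes were *Anxa11* (1.56), whose product binds S100A6 and whose *lal+/+* mean lay below the level of silent genes, and *Sugt1* (1.07), and the lower genes were *Anxa6* (-1.9998) and *Ahnak* (-1.03), a large scaffold that binds the complex of S100A10 and annexin A2. *Anxa2* itself had a log2 fold change of 0.82 (standard error 0.12, limma adjusted p = 0.00243), below the fold threshold and opposite in sign to *S100a10*. It read 11.35 and 11.32 in *lal+/+* cells and 12.15 on both *lal-/-* arrays. *Anxa1* (0.91), partner of S100A11, *Myh9* (0.64), the myosin that S100A4 binds, and *Cacybp* (-0.57), a partner of S100A6, had adjusted p values under 0.05 without reaching the fold threshold. With a common median 5 partners were higher and 1 lower, with *Anxa1*, *Anxa2* and *Myh9* among the higher. The decrease of *Cacybp* did not hold under other scalings. It was 0.046 with a common median (adjusted p = 0.866) and -0.13 with the values as deposited (adjusted p = 0.557).

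S100A10 is one route by which plasminogen is activated at the cell surface. Of 5 measured genes of this system, *Plau* (1.77), which encodes urokinase, and *Plaur* (1.53), its receptor, were higher. *Plgrkt* (-1.25), another plasminogen receptor, was lower, as *S100a10* was. *Plgrkt* was not called with a common median. *Plau* read 5.17 and 5.31 in *lal+/+* cells, under the level of silent genes, and 7.10 and 6.91 in *lal-/-* cells. *Plat* and *Serpinb2* did not pass and lay below the level of silent genes in both genotypes.

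Among 10 receptors and adaptors of secreted S100 proteins, *Mcam* (1.38) was higher and *Cd36* (-1.87) lower. *Tlr4* (0.33) and *Ager* (-0.41), the genes of TLR4 and RAGE, did not pass the test. *Tlr4* had an adjusted p of 0.00473 with a common median (0.88) and of 0.0162 with the values as deposited (0.70), below the fold threshold in both. *Myd88*, the adaptor of TLR4 signaling, rose by 0.995 (limma adjusted p = 0.00132), just short of the fold threshold, and by 1.63 with a common median. With a common median 4 of these genes were higher, and with the values as deposited 3.

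Of 11 transcription factors linked to *S100a8* and *S100a9*, 2 were higher and 0 lower. *Cebpe*, needed for the late steps of granule formation, rose by 1.98 (standard error 0.14, limma adjusted p = 1.69e-04), and *Spi1*, which encodes PU.1, by 1.25 (adjusted p = 0.00199). *Cebpa* (0.66) and *Cebpd* (0.66) had adjusted p values under 0.05 but missed the fold threshold, and *Cebpb* (0.087) did not pass. *Cebpd* was called higher with a common median (1.27) and with the values as deposited (1.09), and *Cebpb* was 0.50 with a common median (adjusted p = 0.0495). The number of higher genes was 5 with a common median and 4 with the values as deposited. Calprotectin also carries arachidonic acid to the phagocyte NADPH oxidase. Of 5 measured genes of the oxidase 5 were higher, from *Rac2* (1.26) to *Cyba* (2.72).

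Other EF-hand proteins bind calcium by the same fold as the S100 proteins. Of 24 such genes measured, 13 were higher and 1 lower, and their log2 fold changes had a median of 1.18. The largest increase was that of *Gca* (2.44), which encodes grancalcin of neutrophil granules, and it was followed by *Tnnc1* (1.95, from below the level of silent genes), *Capns1* (1.86), the small subunit of calpains, and *Efhd2* (1.78). *Capn2* (-1.19) was lower. *Calm2* (0.012), one of the calmodulin genes, did not pass at a level of 13.02 and 12.98 against 13.02 and 13.0004, in the same bright range as *S100a8*. With a common median 17 were higher and with the values as deposited 15.

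*Ly6g*, of the antigen used in the selection, read 10.19 and 9.80 in *lal+/+* cells and 12.91 and 12.84 in *lal-/-* cells. Granule genes rose in the same arrays while *S100a8* and *S100a9* stayed near the highest values on the arrays. Of 5 genes of primary granules and promyelocytes 5 were higher (mean level 5.66 to 5.68 against 8.75 to 8.83), and of 8 genes of secondary granules and myelocytes 6 were higher (10.97 to 11.08 against 12.72 to 12.74). Of 6 genes listed for mature neutrophils 2 were higher and 2 lower. Their mean level (11.86 to 11.90 against 11.82 to 11.84) thus combines changes in both directions and does not show unchanged genes. The higher were *Mmp9* (2.07) and *Mmp8* (1.23) and the lower *Il1b* (-1.99) and *Csf3r* (-1.91), while *Cxcr2* (0.026) and *Retnlg* (0.26) did not pass the test. The part of these shifts in the changes of the S100 genes was not tested.

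**Figure D4:**
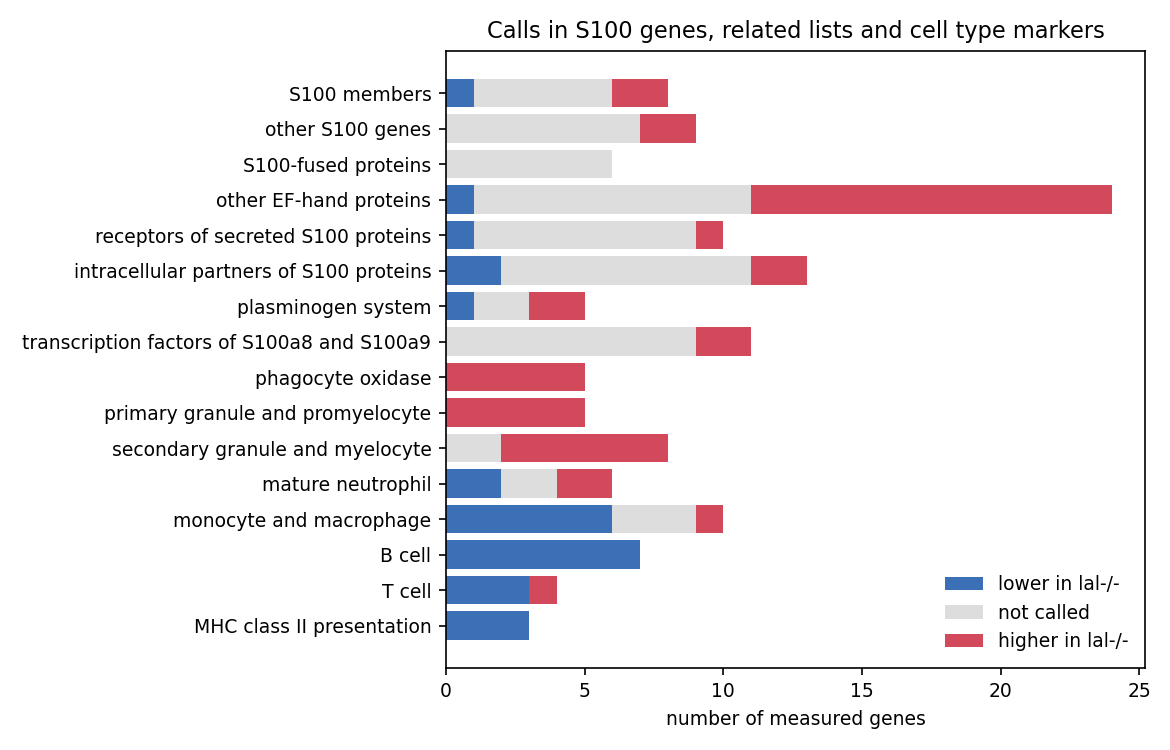
Number of measured genes (horizontal axis) in the S100 genes, the related lists and the lists of cell type markers, split into genes lower in *lal-/-* cells (blue), not called (grey) and higher (red). Other EF-hand proteins (13 of 24 higher) and the phagocyte oxidase (5 of 5) stand beside 2 of 8 S100 genes higher.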

How the data were processed

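Gene expression was measured with 4 Affymetrix Mouse Gene ST arrays, 2 of each genotype. RMA in Partek Genomics Suite was used by the authors, and the deposited values are log2 expression values of 35557 probe sets. The submitters' processing notes name GCOS 1.1. The labels give NuGEN reagents for the target and the methods an Affymetrix kit. Of these probe sets 21789 name 1 gene, and 0 of those naming several genes name an S100 gene. Of the 1-gene probe sets 21698 were matched to current symbols. The deposited medians differed by up to 0.208, so the arrays were quantile normalized. Genotype was fitted with limma 3.58.1 in R 4.3.3, which moderated the variances (residual degrees of freedom 2, prior 4.83). Benjamini-Hochberg adjustment covered all 21789 probe sets of 1 gene. The tissue effect of the study’s model could not be fitted, since bone marrow was the only tissue here. The probe set with the highest mean stands for a gene, and levels of different probe sets were not compared as amounts of transcript. With 2 arrays against 2, the smallest exact two-sided permutation p is 0.333.

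The S100 genes and the 18 related lists were chosen with earlier results of these data known. The rule was to name all S100 genes of the array and the called genes of each list up to 4 in each direction. The nearest neighbors in the genome and the 3 genes of most similar profile were named too. The rule was not fully followed for the phagocyte oxidase and most lists of cell type markers, which are given mainly by counts. Genes named beyond this rule, among them *Anxa1*, *Anxa2*, *Myh9*, *Cacybp*, *Fgf1*, *Il1a*, *Tlr4*, *Ager*, *Myd88*, *Calm2* and the C/EBP genes, were picked from the lists for their known link to a member. Of *Lipa*, the disrupted gene, the log2 signal was 9.50 and 9.05 in *lal+/+* and 7.37 and 7.49 in *lal-/-* cells. The alternatives were a common median, the values as deposited, a filter on dim probe sets, the adjustment over all probe sets, an intensity trend, an ordinary linear model, a replicate block, other thresholds, averaging probe sets of 1 gene, and leaving out each array. The procedure was tested on simulated data.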

Additional observations from a re-analysis of the deposited data

How the results depend on the processing

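The direction of each of the 8 S100 genes was the same in the 15 other settings. *S100a1*, *S100a10* and *S100a13* were called in 14 of them, all but the ordinary linear model, in which the residual spread of 2 degrees of freedom is not moderated. That model called 0 of the 8 genes higher and 0 lower, with 6 at an unadjusted p under 0.05, and 0 of all genes in either direction, with 5691 at an unadjusted p under 0.05. In it the adjusted p was 0.0742 for *S100a1*, 0.0519 for *S100a10* and 0.0517 for *S100a13*. With a common median 4 of the 8 genes were higher, and 2620 of all genes were higher and 466 lower, against 1508 and 646 with quantile normalization. With no fold threshold 4 of the 8 were higher, and 3938 of all genes were higher and 1963 lower. The values as deposited gave 2013 higher and 632 lower. Over all genes the log2 fold change had a median of 0.085, of 0.12 with a common median and of -0.055 as deposited, and small changes are relative to it.

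Signs that turned were those of S100 genes that did not pass. *S100a5* was -0.021 with a common median and -0.20 as deposited, where *S100a7a* was -0.094 and *S100z* -0.014. With each array left out in turn, *S100a5* ranged from -0.068 to 0.18, *S100a7a* from -0.24 to 0.24, *S100a16* from -0.38 to 0.034 and *S100g* from -0.25 to 0.37. The cause was not tested. Same-numbered arrays tended weakly to deviate in opposite directions (correlation -0.175 across probe sets). They thus showed no shared deviation, which does not settle whether they were processed as pairs. The replicate block left 2 of the 8 genes higher and 1 lower, as did a block with the numbers crossed, added after the data were seen. *S100a8*, *S100a9* and *S100a11*, and in *lal-/-* cells *S100a6*, lay near the highest values on the arrays, and whether this limits their signal was not tested. The *lal+/+* means of *S100a2* and *S100a3* lay below the level of silent genes.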

Other observations

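The S100-fused proteins of the skin barrier, whose genes lie between both groups of S100 genes on chromosome 3, gave no called gene. Of 6 measured, 4 lay below the level of silent genes in both genotypes. *Tchhl1* had the largest log2 fold change of them (-0.90, limma adjusted p = 0.00517) and *Hrnr* one of 0.0035. Of 5 eosinophil markers *Prg2* was higher (1.44) and *Ccr3* lower (-3.89), and of 4 erythroid markers 0 were called. *Alas2* passed the adjusted p without reaching the fold threshold (-0.66, limma adjusted p = 0.0122), the median of the 4 being -0.045 on the log2 scale. The list means of these markers lay between 7.55 and 7.61 on the *lal+/+* and at 6.90 on the *lal-/-* arrays for eosinophils, and between 7.14 and 7.38 on all 4 arrays for erythroid cells.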
